A study of Mus musculus with 16 samples.

Results

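The insulin receptor, its substrates and the kinase chain that leads from them to the FOXO transcription factors were examined in mouse small intestine lacking Cul4b, the gene of a scaffold protein of Cullin-RING ubiquitin ligases. The 10 genes are the receptor Insr, the docking proteins Irs1 and Irs2, the phosphoinositide 3-kinase (PI3K) subunits Pik3r1 and Pik3ca, the kinases Akt1 and Akt2, the transcription factors Foxo1 and Foxo3, and the adaptor Socs4. They were looked up by gene symbol in 3 count tables that together list 54643 genes, and each was found once in every table. RNA-seq was made from C57BL/6 mice in 3 experiments. The first compared isolated crypts, the epithelial pockets that hold the stem cells, of 4 WT libraries and 4 libraries of pVillin-Cre; Cul4b fn/Y mice (KOIEC), in which the villin promoter drives Cre in the intestinal epithelium. The second compared organoids, epithelial cultures grown from crypts, of the same genotypes with 2 libraries each. The third compared 2 WT organoid libraries with 2 of CAG-CreERT2; Cul4b fn/Y (KOCAG), in which a ubiquitous promoter drives a Cre that acts only after tamoxifen or its active form is given. The study treated the KOCAG organoids with tamoxifen before sequencing, and its methods name the active form for Cre induction in organoids. By the study's text, WT for KOIEC is Cul4b fn/Y without Cre, so the floxed allele is shared. Most experiments of the study used young adult mice, and its text gives groups of 4 for the crypts, as mice for KOIEC, and calls the libraries of a group biological replicates. Whether the WT of KOCAG carried CreERT2 or received the drug, and whether organoid libraries of a group came from separate mice, is not given in the sources used here. Organoid p-values therefore measure only the spread between these libraries, which may be technical.

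Insulin binds the receptor tyrosine kinase INSR, which phosphorylates IRS1 and IRS2. These recruit PI3K, a dimer of a regulatory and a catalytic subunit, and the lipid it makes brings AKT kinases to the membrane. AKT phosphorylates FOXO proteins and keeps them out of the nucleus. When insulin is low, nuclear FOXO raises transcription of genes of fasting metabolism, among them Insr and Irs2 themselves. The organoid medium of the study contained B27, a supplement that includes insulin.

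Levels are given as CPM, counts scaled for library size with TMM factors. Cul4b mRNA was the check of the labels. It fell in each experiment, in crypts from a WT mean of 33.9 ± 3.01 to a KOIEC mean of 1.43 ± 0.632 CPM (SD, n = 4 each), in KOIEC organoids from 78.2 ± 7.07 to 1.72 ± 0.0486 CPM and in KOCAG organoids from 71.5 ± 1.97 to 4.26 ± 1.31 CPM (SD, n = 2 each; edgeR adjusted p = 0.000169, 0.0311 and 1.93e-06). Library totals ran from 7348191 to 16881395 counts, and 3 counts, taken as the floor, were worth 0.178 to 0.408 CPM, which covers counting error only. Epithelial markers (Epcam, Cdh1, Vil1, Krt8, Cdx2) summed to 4828 to 9215 CPM in every library. Of the 4 adipocyte markers, Adipoq and Lep were at 0 counts throughout. Plin1 was also at 0 in the crypts and the KOCAG experiment, so the sums there were of Cidec alone. Sums were 5.36 to 18.5 CPM in WT and 14.5 to 45.6 CPM in KOIEC crypts, and 9.16 to 12.8 CPM in the KOIEC organoid experiment. In the KOCAG experiment they were 6.38 and 5.70 CPM in WT against 21.3 and 18.5 CPM in KOCAG organoids. Crypt libraries differed in mitochondrial ribosomal RNA. It stood at 18.9 to 25.2 CPM in WT replicate 1 and KOIEC replicates 1 to 3, at 834 and 1078 CPM in both replicates 4, and at 2840 and 2873 CPM in WT replicates 2 and 3. These 2 WT libraries also had the lowest sums of 8 enterocyte markers (2987 and 2234 CPM), against 5507 and 8558 CPM in the other WT and 7350 to 15688 CPM in the KOIEC libraries. In these bulk samples fewer cells of a type and less RNA per cell cannot be told apart.

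Levels were first compared between genes within a group, per kilobase of gene length (RPKM, TMM-scaled), as a description. That length was 13746 bases for Insr, 6323 for Irs2 and 4098 for Akt1, all annotated exon bases together rather than a single transcript. Close places in the order may therefore depend on the annotation. Akt1, the ubiquitous AKT isoform, was the highest of the 10 in all 6 groups, at 53.6 ± 8.98 RPKM in WT crypts (SD, n = 4). Pik3r1, the gene of the regulatory subunits p85α, p55α and p50α, came next in WT crypts at 16.6 ± 1.38 RPKM, and the ranges of these first 2 did not overlap each other or the next gene. Socs4 (9.92 ± 1.05) and Akt2 (9.53 ± 0.914), the isoform most tied to glucose uptake, had overlapping ranges. Foxo3 (6.43 ± 0.22 RPKM) lay alone below them. Pik3ca, the catalytic subunit p110α, at 5.40 ± 0.475 RPKM overlapped Insr (4.61 ± 0.392), Insr overlapped Foxo1 (4.45 ± 0.602), and Foxo1 overlapped Irs2 (4.12 ± 0.463). Irs1 was far below all of these, at 0.0719 ± 0.0253 RPKM. Irs2 was the more abundant of the substrates, at 34.3 to 91.7 times the Irs1 level within a WT crypt library and 95.4 and 108 times within the WT libraries of the KOIEC organoids. In the WT libraries of the KOCAG organoids Irs1 had only 2 and 3 counts, so no such ratio is given there. The Akt2 level was 0.169 to 0.207 of the Akt1 level in WT crypts and 0.136 to 0.193 in WT organoids.

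**Figure D1:**
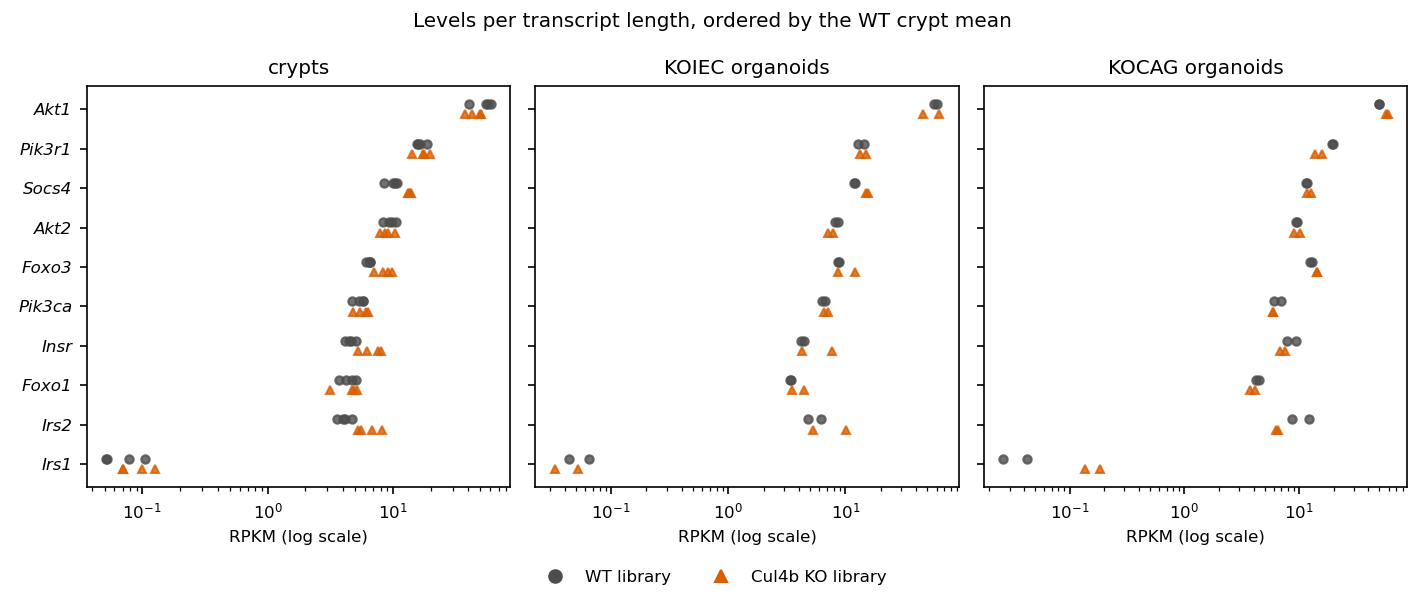
Level of each gene per kilobase of gene length (RPKM, log scale) in every WT (grey circles) and Cul4b KO (orange triangles) library of the 3 experiments, with genes ordered by their WT crypt mean. Akt1 is the highest and Irs1 the lowest in every group, with the other 8 genes between 3.14 and 19.7 RPKM.

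Promoter sequence is shown for the substrates, because Irs2 had the largest fold change among the tested members in both the crypts and the KOCAG organoids and Irs1 lay near the floor. In RefSeq on GRCm38.p6, 9 of the 10 genes have promoter windows, 14 in all, and Insr has none there. The 250 bases before each start were searched on both strands for 3 forkhead-like words, which differ in their first letter and cannot match at the same place, and for the core of the cAMP response element. Of 32851 windows in the table, 3.17% hold GTAAACA, while 4.16% hold ATAAACA. The word CAAAACA is held by 5.56% of windows, any of these forkhead-like words by 12.1%, and the cAMP element core TGACGT by 6.47%. Among the member windows 3 hold a match, those of Irs1 and Irs2 and 1 of the 2 of Akt1 (GTAAACA). The windows below lie on the minus strand and are printed 5′ to 3′, with matches to CAAAACA on the opposite strand in capitals. Counted back from the RefSeq start, the first base of the match is at -37 in Irs2 and at -111 and -32 in Irs1. The RefSeq start of Irs2 lies 471 bases upstream of the gene's end in the count tables (chr8:10984681-11008458, minus strand) and that of Irs1 23 bases (chr1:82233101-82291416, minus strand).
Irs2 promoter, chr8:11008930-11009179: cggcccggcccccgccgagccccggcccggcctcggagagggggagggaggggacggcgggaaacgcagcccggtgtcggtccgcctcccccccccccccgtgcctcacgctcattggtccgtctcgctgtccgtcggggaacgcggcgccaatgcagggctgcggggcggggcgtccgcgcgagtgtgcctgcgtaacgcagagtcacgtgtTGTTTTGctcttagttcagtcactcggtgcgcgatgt
Irs1 promoter, chr1:82291440-82291689: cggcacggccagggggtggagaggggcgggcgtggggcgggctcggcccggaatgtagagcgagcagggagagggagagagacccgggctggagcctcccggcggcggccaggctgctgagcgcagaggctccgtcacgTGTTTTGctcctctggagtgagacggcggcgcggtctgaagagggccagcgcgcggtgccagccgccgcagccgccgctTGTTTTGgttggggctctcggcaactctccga
Both windows are rich in G and C (72.8% for Irs2 and 72.4% for Irs1, against a median of 52.4% over all windows). No binding was measured here, so the matches describe letters only.

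In KOIEC crypts the receptor, 1 substrate, 1 FOXO factor and Socs4 were higher than in WT, and the kinases between them were not called. Insr, Irs2, Foxo3 and Socs4 passed an adjusted p under 0.05 (edgeR's quasi-likelihood test, Benjamini-Hochberg over all genes), 4 of the 9 members that passed the low-count filter, all higher. Over all 13427 genes tested, 6.96% were called, 4.30% higher and 2.66% lower. The same 4 had WT and KOIEC ranges that did not overlap, against 17.5% of all genes, of which 8.70% lay higher and 8.79% lower. Each rose by less than 2-fold, where 1.79% of all genes were called at 2-fold or more, from 1.34-fold for Foxo3 to 1.57-fold for Irs2.

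Insr (ENSMUSG00000005534, chr8:3122061-3279617, minus strand) stood at 63.8, 61.9, 57.2 and 70.3 CPM in WT replicates 1 to 4 and at 72.5, 105, 110.3 and 85.1 CPM in KOIEC replicates 1 to 4. The KOIEC libraries spread more widely, and the lowest of them lay only 2.25 CPM above the highest WT. The log2 fold change was 0.56 (SE 0.14, adjusted p = 0.0486, edgeR). Irs2 (ENSMUSG00000038894) stood at 26.1, 29.9, 22.8 and 25.4 CPM in WT and at 52.1, 33.5, 42.7 and 34.9 CPM in KOIEC. Here KOIEC replicate 1, the lowest of its group for Insr, was the highest, and the gap between the groups was 3.63 CPM. Its log2 fold change of 0.65 (SE 0.16, adjusted p = 0.0461, edgeR) was the largest of the 9 tested. The level ratio of Insr to Irs2 within a library ran from 0.95 to 1.27 in WT and from 0.64 to 1.44 in KOIEC crypts.

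Foxo3 (ENSMUSG00000048756, chr10:42181841-42276755, minus strand) was tight in WT, at 49.7, 48.8, 46.3 and 49.9 CPM, and stood at 63.4, 69.7, 74.8 and 53.3 CPM in KOIEC. KOIEC replicate 4 lay close to WT and the other 3 well above it. The log2 fold change was 0.42 (SE 0.11, adjusted p = 0.0499, edgeR). Foxo1, the FOXO factor best known from liver and adipose tissue, ran from 32.2 to 44.1 CPM in WT and from 27.2 to 45.2 CPM in KOIEC (log2 fold change 0.01, SE 0.17, adjusted p = 0.967, edgeR). The level ratio of Foxo3 to Foxo1 was 1.27 to 1.78 in WT and 1.79 to 2.24 in KOIEC crypts, a description with a gap smaller than the spread in either group. Socs4 (ENSMUSG00000048379, chr14:47276931-47296098, plus strand), a suppressor of cytokine signaling that recruits a ubiquitin ligase and is known for acting on the EGF receptor, stood at 57.9, 72.1, 68.4 and 74.2 CPM in WT and at 90.4, 95.1, 92.7 and 96.6 CPM in KOIEC. It had the widest gap of the 4, 16.2 CPM, with KOIEC libraries close together, and a log2 fold change of 0.46 (SE 0.09, adjusted p = 0.0413, edgeR). For each of these 4 genes an exact two-sided permutation test of the library labels gave an unadjusted p = 0.0286, the smallest that 4 against 4 allow. This value follows from ranges that do not overlap, which 17.5% of all genes had, so it adds nothing to the ranges.

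The kinases had overlapping groups. Pik3r1 ran from 156 to 188 CPM in WT and from 142 to 199 CPM in KOIEC (log2 fold change 0.05, SE 0.12). Pik3ca ran from 43.1 to 52.3 and from 43.7 to 58.1 CPM (0.08, SE 0.11), and Akt2 from 59.8 to 75.4 and from 56.8 to 74.8 CPM (-0.07, SE 0.11). Akt1 ran from 166 to 248 CPM in WT and from 154 to 206 CPM in KOIEC. Its log2 fold change of -0.25 (SE 0.15, adjusted p = 0.28, edgeR) was the most negative of the 9 tested here.

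The 4 crypt calls lay near the threshold. All 4 were lost on leaving out WT replicate 1, 2 or 3 or KOIEC replicate 2 or 3. Calls over all genes fell there too, from 934 to 20, 3, 11, 2 and 2 in that order. Insr and Socs4 were lost without KOIEC replicate 4, where 513 genes of all were called. Directions held, with log2 fold changes of 0.48 to 0.66 for Insr, 0.51 to 0.73 for Irs2, 0.36 to 0.52 for Foxo3 and 0.40 to 0.52 for Socs4. Without the 2 WT libraries of high mitochondrial ribosomal RNA, a choice made after the data were seen, 0 members and 1 gene of all tested were called, and the 4 log2 fold changes were 0.47, 0.66, 0.39 and 0.50 in the same order (adjusted p = 0.39 each, edgeR). Between libraries of the low class (1 WT, 3 KOIEC) the log2 CPM differences were 0.56, 0.69, 0.47 and 0.68, and in the middle class (1 of each) 0.28, 0.46, 0.09 and 0.38, with no replicate check in either. Markers moved with genotype as well. Enterocyte markers summed to 2234 to 8558 CPM in WT and 7350 to 15688 CPM in KOIEC crypts (1 of 8 called, higher), and stem cell markers to 1388 to 2224 against 863 to 1396 CPM (2 of 4 called, lower). Mesenchyme markers (12.8 to 17.3 against 7.29 to 10.1 CPM, 0 called) and glia markers (1.13 to 3.68 against 0.424 to 0.919 CPM, 1 called, lower) had sums that did not overlap, unlike the first 2 lists, and Paneth markers were at 1628 CPM in KOIEC replicate 3 and at 6488 to 16131 CPM in the other 7 libraries. With the enterocyte score as a covariate Insr was at 0.28 (SE 0.18), Irs2 at 0.77 (SE 0.23) and Foxo3 at 0.37 (SE 0.17). In that fit 0 members and 1 gene of all were called.

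**Figure D2:**
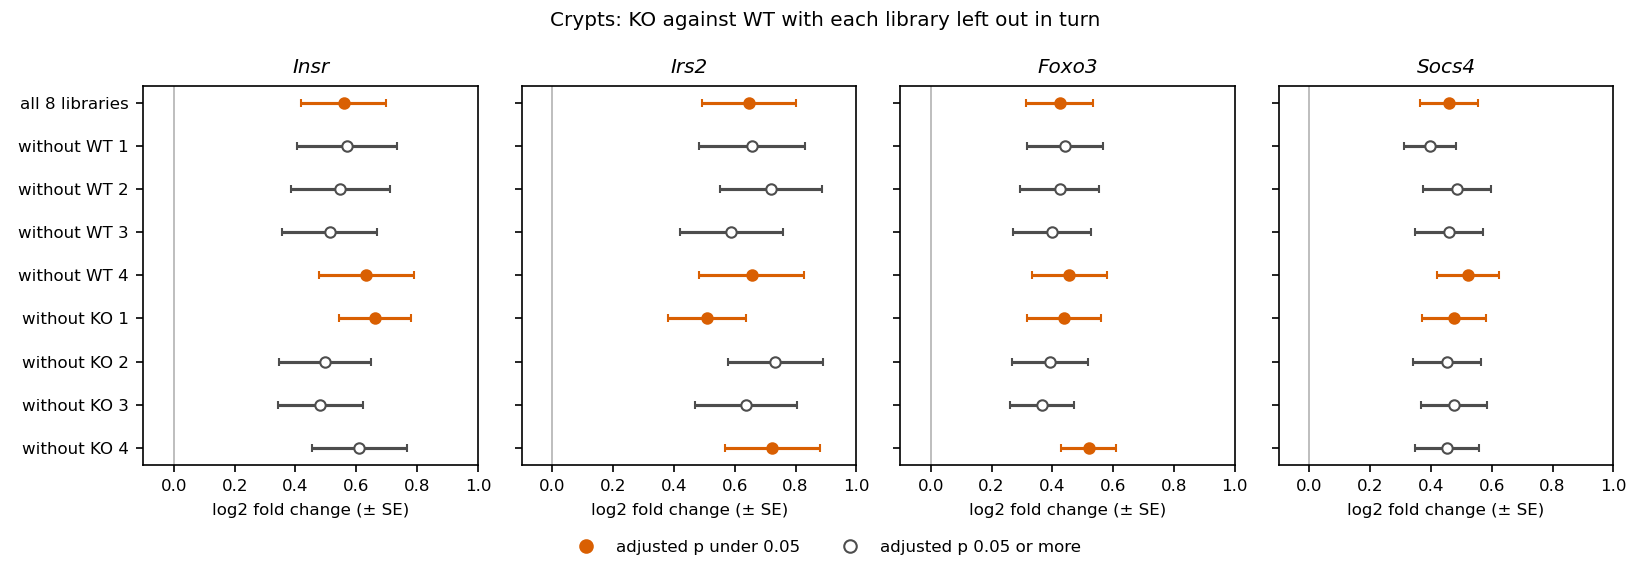
Log2 fold change of KOIEC over WT crypts (point, with its standard error) for Insr, Irs2, Foxo3 and Socs4 in the fit of all 8 libraries and with each library left out in turn, filled where the adjusted p was under 0.05. Every point lies to the right of 0, and of the 8 fits that leave out a library those without WT replicate 4 and without KOIEC replicate 1 call all 4 genes.

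In KOIEC organoids none of the 9 members that passed the filter was called (edgeR adjusted p under 0.05). Of all 13938 genes 0.00717% were called, a single gene, Cul4b itself, and 650 had an unadjusted p under 0.05. DESeq2's Wald test called 0 members and 26 genes of all, and no member had an unadjusted edgeR p under 0.05. Ranges did not overlap for 3 of the 9, Socs4 and Foxo1 lying higher and Akt2 lower, against 38.9% of all genes, so the members' share lay at or under that of all genes. Socs4 stood at 82.1 and 83.0 CPM in WT replicates 1 and 2 and at 103 and 108 CPM in KOIEC replicates 1 and 2, with a log2 fold change of 0.35 (SE 0.14, unadjusted p = 0.0588, adjusted p = 0.856, edgeR).

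The receptor and its substrate differed between the KOIEC organoid libraries themselves. Insr stood at 57.7 and 61.1 CPM in WT and at 58.1 and 106 CPM in KOIEC, Irs2 at 30.2 and 39.4 against 33.7 and 63.7 CPM, and Foxo3 at 65.5 and 66.8 against 65.1 and 91.3 CPM. In each, KOIEC replicate 1 lay within or just below the WT range and replicate 2 alone lay above it. The log2 fold changes were 0.46 (SE 0.31), 0.48 (SE 0.35) and 0.24 (SE 0.21). Without KOIEC replicate 2 they were -0.03, -0.04 and -0.02, and without KOIEC replicate 1 Insr and Irs2 were called at 0.83 and 0.87 (edgeR adjusted p = 0.0103 and 0.0249, the lone library being assumed to vary as the WT did). In that last fit 2322 genes of all were called, against 1 with all 4 libraries. KOIEC replicate 2 also stood apart in its markers, with enterocyte markers summing to 12219 CPM against 4708 to 7971 in the other 3 libraries, goblet markers to 6384 against 1482 to 1731 CPM, and stem cell markers to 333 against 1422 to 3446 CPM. The part of this in the Insr and Irs2 values was not tested.

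Akt1 stood at 248 and 234 CPM in WT and at 259 and 187 CPM in KOIEC, so that replicate 2 again lay apart, here below (log2 fold change -0.11, and 0.11 without it). Akt2 stood at 58.7 and 62.2 CPM in WT and at 56.1 and 50.3 CPM in KOIEC (-0.18, SE 0.16). Foxo1 stood at 29.7 and 29.1 CPM in WT and at 30.6 and 38.2 CPM in KOIEC (0.23, SE 0.20). Pik3r1 and Pik3ca had log2 fold changes of 0.08 and 0.06, with overlapping groups.

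In KOCAG organoids, where the deletion is induced, Irs2 and Pik3r1 fell. They were 2 of the 9 members that passed the filter, and 31.5% of all 13598 genes were called in this experiment, 18.1% higher and 13.4% lower, so the members' share was no higher than that of all genes. None of the 9 was called at 2-fold or more, against 8.60% of all genes. Irs2 stood at 77.6 and 54.7 CPM in WT and at 41.6 and 39.7 CPM in KOCAG. Both KOCAG libraries lay below both WT libraries by at least 13.1 CPM, and the WT pair differed from each other by more than that. The log2 fold change was -0.71 (SE 0.15, adjusted p = 0.0055, edgeR). Pik3r1 (ENSMUSG00000041417, chr13:101680563-101768217, minus strand) stood at 195 and 199 CPM in WT and at 139 and 158 CPM in KOCAG, a clear separation of 37.4 CPM (log2 fold change -0.41, SE 0.09, adjusted p = 0.00647, edgeR). With each of the 4 libraries left out, log2 fold changes ran from -0.51 to -0.34 for Pik3r1 and from -0.94 to -0.44 for Irs2. Both calls were lost in a single fit of all 16 libraries (adjusted p = 0.151 for Pik3r1 and 0.185 for Irs2, edgeR). Calls over all genes fell from 4278 to 477 in that fit. The smallest exact permutation p with 2 libraries a group is 0.333.

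The other members of the chain lay on either side. Insr stood at 128 and 109 CPM in WT and at 104 and 94.2 CPM in KOCAG, lower without overlap by 4.88 CPM, with a log2 fold change of -0.26 (SE 0.10, adjusted p = 0.0694, edgeR). Without KOCAG replicate 1 the log2 fold change of Insr was -0.35. Akt1 stood at 202 and 204 CPM in WT and at 242 and 232 CPM in KOCAG (0.22, SE 0.08, adjusted p = 0.0574, edgeR). Its log2 fold change was 0.25 without KOCAG replicate 2. Foxo3 stood at 97.0 and 93.6 CPM in WT and at 109 and 108 CPM in KOCAG (0.19, SE 0.08, adjusted p = 0.1, edgeR). Foxo1 and Pik3ca had log2 fold changes of -0.14 and -0.13, and Socs4 and Akt2 of 0.07 and 0.01 with overlapping groups. In all, 7 of 9 members did not overlap, 2 higher and 5 lower, against 69.7% of all genes, of which 35.5% lay higher and 34.2% lower. In these organoids all 8 enterocyte, all 4 goblet, all 6 enteroendocrine and 4 of 5 Paneth markers rose, while 2 of 4 stem cell markers fell and the other 2 were not called. The enterocyte sum was 3567 and 3935 CPM in WT and 9766 and 12380 CPM in KOCAG, and the stem cell sum 2589 and 3100.1 against 2118 and 2492 CPM. The Paneth sum was 3893 and 3509 CPM in WT and 6160 and 5855 CPM in KOCAG. Their part in the member values was not tested.

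**Figure D3:**
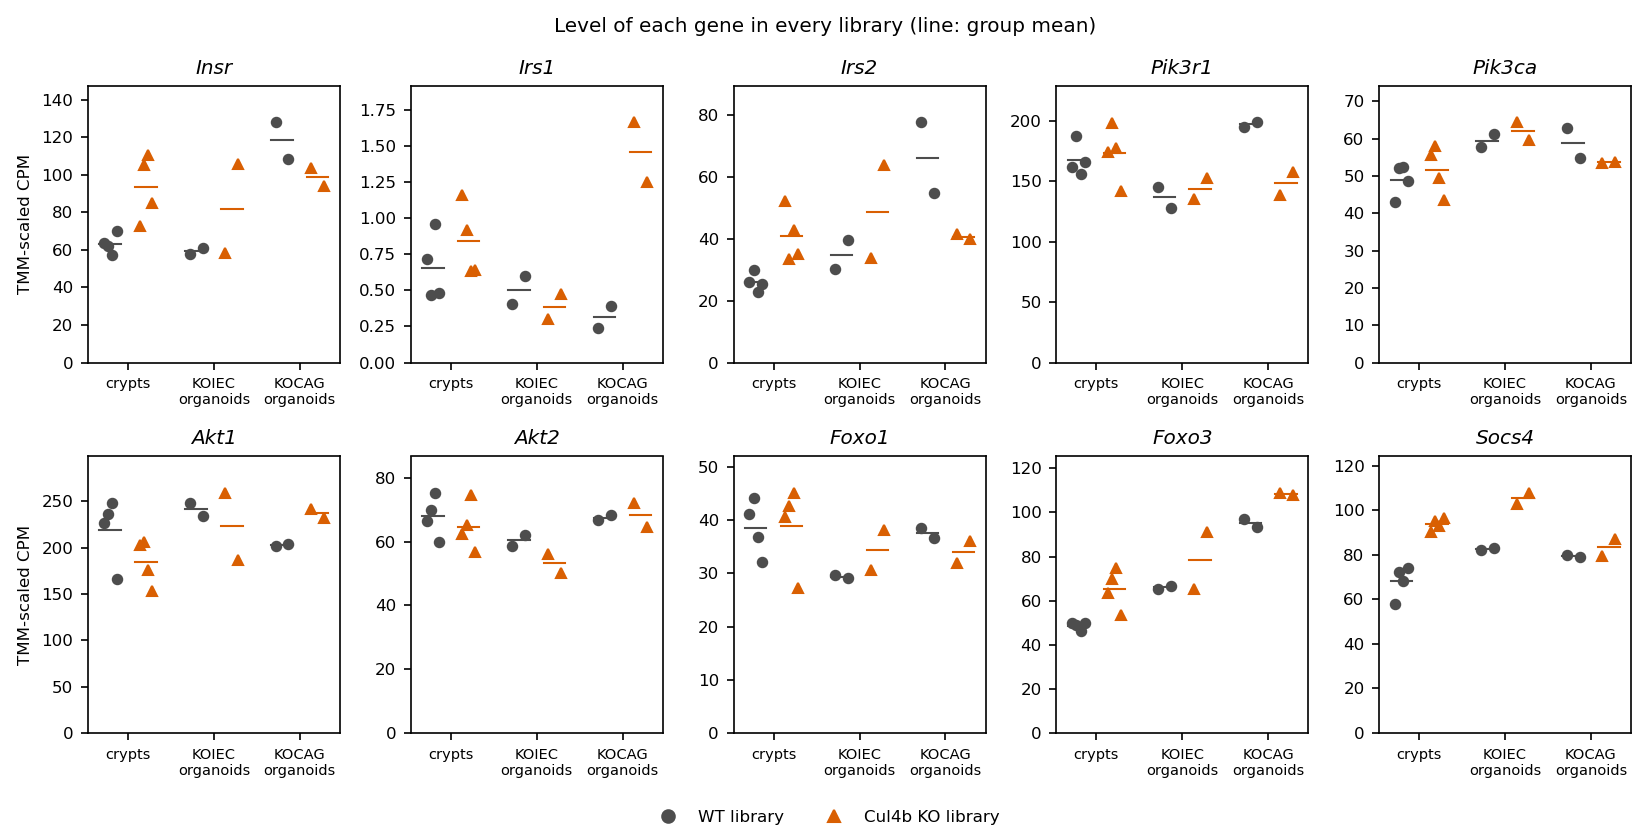
TMM-scaled CPM of each of the 10 genes in every WT (grey circles) and Cul4b KO (orange triangles) library of the 3 experiments, with the mean of each group as a line and each axis starting at 0. Insr, Irs2, Foxo3 and Socs4 separate in the crypts, 1 of the 2 KOIEC organoid libraries lies high for Insr, Irs2 and Foxo3, and Irs2 and Pik3r1 are low in KOCAG organoids.

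**Figure D4:**
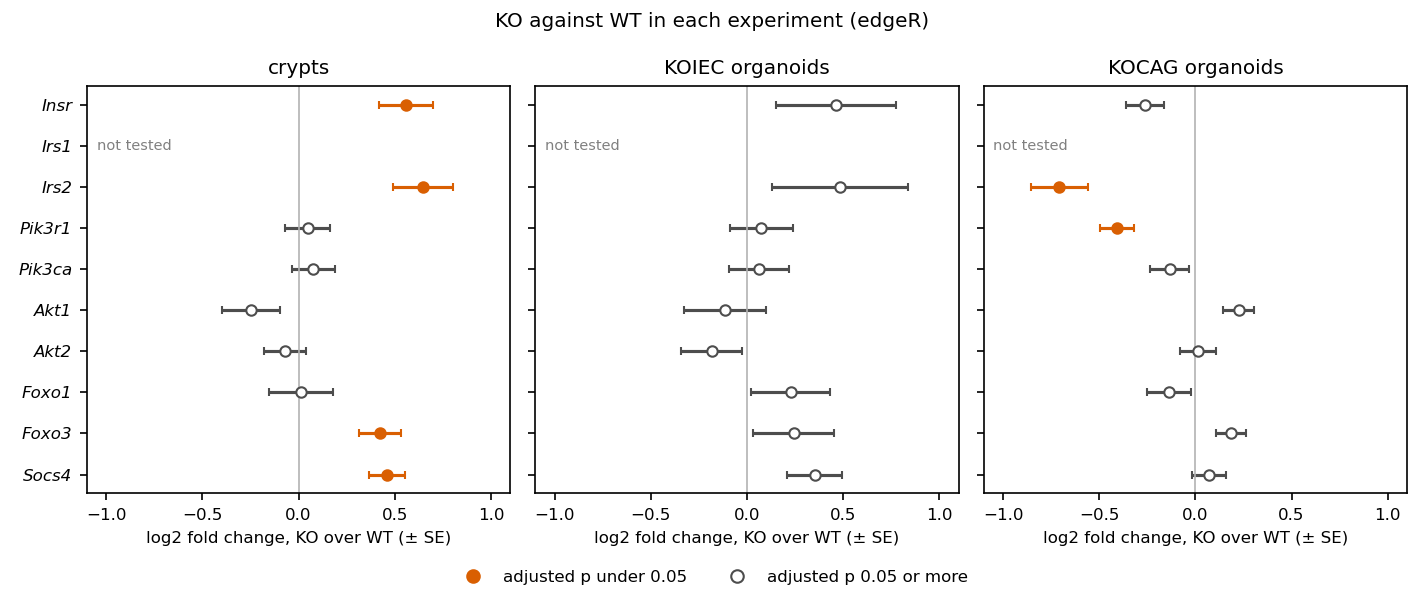
Log2 fold change of KO over WT with its standard error for each gene in the 3 experiments (edgeR), filled where the adjusted p was under 0.05, with Irs1 not tested. The filled points are Insr, Irs2, Foxo3 and Socs4 above 0 in the crypts and Irs2 and Pik3r1 below 0 in KOCAG organoids.

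Irs1, the other main substrate, passed the low-count filter in no experiment. Its counts were 5 to 12 per crypt library and 5 to 9 per KOIEC organoid library. In the KOCAG experiment it had 2 and 3 counts in the WT libraries, at or under the floor, and 12 and 13 in the KOCAG libraries. Pooled, the KOCAG to WT ratio was 4.46 (95% counting interval 1.68 to 14.9), against 1.19 (0.718 to 2.00) in the crypts and 0.749 (0.323 to 1.69) in KOIEC organoids. Without the filter edgeR gave the KOCAG gene a log2 fold change of 2.15 (SE 0.70, adjusted p = 0.0144), DESeq2 set no adjusted p, and in 1 fit of all libraries the adjusted p was 0.0606. Only the KOCAG interval lay wholly above 1, and it covers counting error alone. In GENCODE M21, 30.9% of the exon bases of Irs1 are shared with Gm9747 on the opposite strand, and the strand setting of the counting is not given in the sources used here. Gm9747 had 0 counts in all 16 libraries. With the strand setting unknown, this cannot show whether reads in the shared bases were left out of Irs1. The Irs2 to Irs1 ratios carry the same limit. The same kind of overlap covers 2.56% of Irs2 (9530052E02Rik, 0 to 19 counts per library) and 7.78% of Foxo1 (Gm20402, 0 counts).

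Since Irs2 was higher in KOIEC crypts and lower in KOCAG organoids, the difference between the effects was tested as an interaction over all 16 libraries. None of the 10 members was called between crypts and KOCAG organoids, where 0.372% of 15585 genes were called, nor between KOIEC and KOCAG organoids (0.385%) or crypts and KOIEC organoids (0.00642%). For Irs2 the crypt effect minus the KOCAG effect was 1.36 (SE 0.35, adjusted p = 0.103) and the KOIEC organoid effect minus the KOCAG effect 1.22 (SE 0.40, adjusted p = 0.274, edgeR). For Insr these differences were 0.83 (SE 0.30, adjusted p = 0.23) and 0.75 (SE 0.35, adjusted p = 0.458, edgeR). Irs2 was called between crypts and KOCAG organoids by DESeq2, without the low-count filter, and without either KOIEC organoid library. Those settings called 383, 674, 218 and 228 genes of all, against 58. Between crypts and KOIEC organoids the differences of the log2 fold changes ran from -0.23 (Foxo1, SE 0.26) to 0.69 (Irs1, SE 0.64). Foxo3 itself was on the positive side in all 3 experiments (log2 fold changes 0.42, 0.24 and 0.19), called in the crypts alone. In KOIEC organoids this rested on replicate 2 (91.3 CPM), as replicate 1 stood at 65.1 CPM against 65.5 and 66.8 CPM in WT.

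Around these members 80 other genes of the pathway were followed in 5 lists, of which 73, 75 and 74 were tested in the 3 experiments. In KOIEC crypts 5 rose and 0 fell, 6.85% of those tested, next to 6.96% of all genes. The median over all lists was 0.19 on the log2 scale (all genes -0.01). By list it was 0.42 for the 22 tested FOXO target genes and 0.36 for PI3K, AKT and phosphatases. It was 0.10 at the receptor level, 0.09 for mTOR and other AKT targets and 0.02 for the FOXO and SOCS families. Phlpp2, a phosphatase that takes the activating phosphate off AKT, went from 33.4 ± 13.7 to 92.0 ± 24.8 CPM (SD, n = 4, log2 fold change 1.46, SE 0.30, adjusted p = 0.0413, edgeR). Among FOXO targets Pck1, the rate-limiting enzyme of gluconeogenesis, rose from 8.96 ± 3.52 to 48.6 ± 32.0 CPM (2.44, SE 0.45). Pdk4, a kinase that shuts pyruvate out of mitochondrial oxidation, rose from 1.13 ± 0.996 to 9.83 ± 6.82 CPM (3.09, SE 0.68), and its lowest WT library was at 0.448 CPM, near the floor. Ccng2, an atypical cyclin linked to cell cycle arrest, rose from 25.7 ± 9.01 to 61.8 ± 24.5 CPM (1.26, SE 0.31). Uncalled FOXO targets lay on both sides of 0. Furthest below it were Fbxo32 (-1.07, SE 0.29, adjusted p = 0.0546, edgeR) and Gabarapl1 (-0.46, SE 0.17). All 5 calls were lost on leaving out WT replicate 1, 2 or 3 or KOIEC replicate 2 or 3, or both WT libraries of high mitochondrial ribosomal RNA. Calls over all genes fell there from 934 to 20, 3, 11, 2, 2 and 1 in that order. Of the list genes 13 were called without WT replicate 4 or without KOIEC replicate 1, where calls over all genes rose to 1864 and 2468. In KOIEC organoids 0 of the 75 were called by edgeR, 2 had an unadjusted p under 0.05, DESeq2 called 0, and 8 were called without KOIEC replicate 1, among 2322 genes of all.

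**Figure D5:**
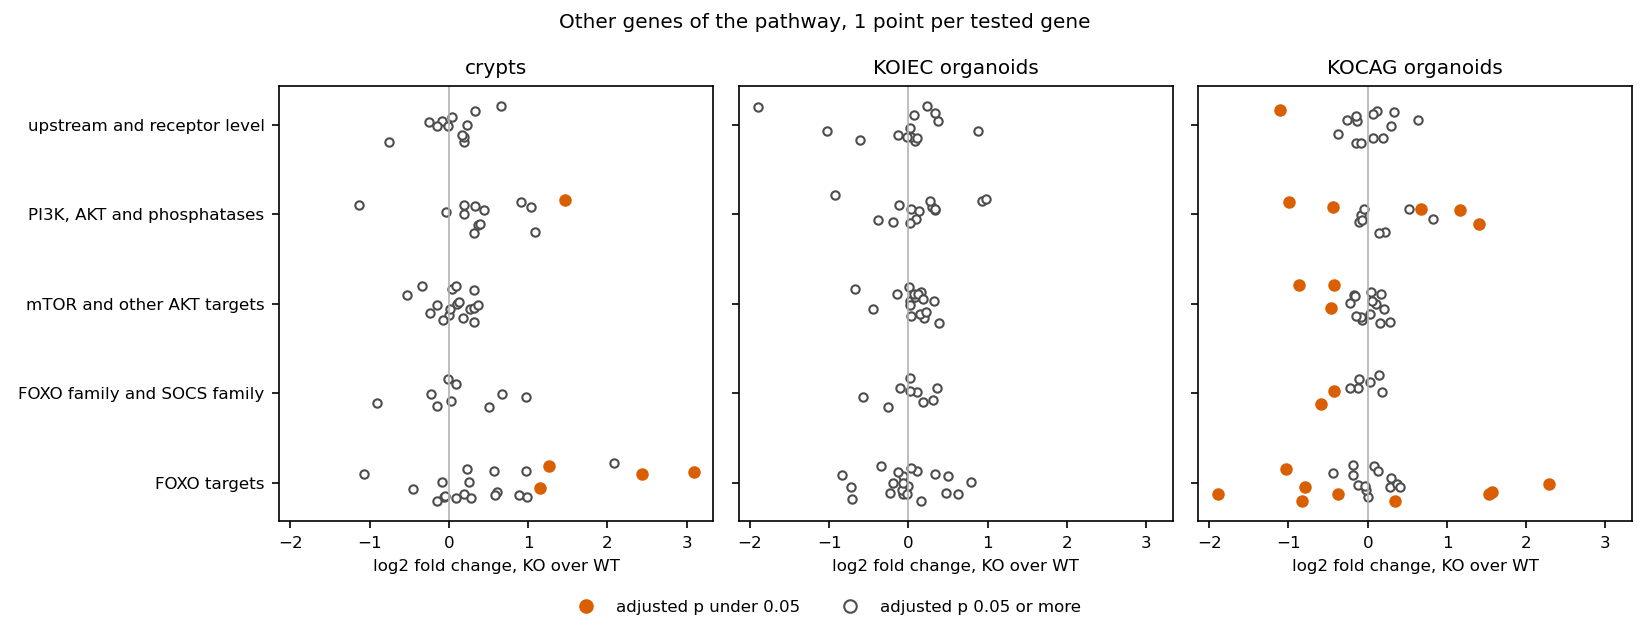
Log2 fold change of KO over WT for each tested gene of 5 lists of other insulin pathway genes (1 point per gene, height within a row has no meaning) in the 3 experiments, filled where the adjusted p was under 0.05. The crypts have 5 filled points, all above 0, KOIEC organoids none, and KOCAG organoids 7 above and 13 below 0.

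In KOCAG organoids 7 of the 74 rose and 13 fell, 27.0% against 31.5% of all genes, with a list median of -0.03. At the receptor level Igf1r, the receptor of insulin-like growth factor 1, fell from 69.9 ± 17.9 to 32.6 ± 4.06 CPM (SD, n = 2, log2 fold change -1.11, SE 0.17, adjusted p = 0.000802, edgeR), alone among 14 genes. Of the PI3K and AKT list 3 rose and 2 fell. Pik3r3, another regulatory subunit, rose from 13.4 to 35.1 CPM (1.40, SE 0.20) while Pik3r1 fell. Phlpp2 rose here too, from 37.4 to 84.2 CPM (1.17, SE 0.14), as its paralog Phlpp1 fell from 58.3 to 43.1 CPM (-0.43, SE 0.10). Trib1, a pseudokinase, rose by 0.67, and Pik3ip1, an inhibitor of PI3K, fell by 0.99 on the log2 scale. Of 17 mTOR and AKT target genes 3 fell and 0 rose, Deptor, an inhibitor of mTOR, from 245 to 134 CPM (-0.87, SE 0.08), Rictor, the defining subunit of mTORC2 (-0.43, SE 0.09), and Tbc1d4, the AKT substrate that holds back glucose transporters (-0.46, SE 0.12).

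Among the relatives of the FOXO and SOCS members Foxo4 fell from 58.4 to 38.7 CPM (-0.59, SE 0.10) and Socs2, a brake on growth hormone signaling, from 55.4 to 41.4 CPM (-0.43, SE 0.11). The 22 FOXO targets tested went both ways, 4 rising and 5 falling. Cdkn1a, the cell cycle inhibitor p21, rose from 119 ± 9.59 to 353 ± 45.5 CPM (1.57, SE 0.11), Pck1 from 3.04 to 15.2 CPM (2.29, SE 0.30) and Klf15, a factor of fasting metabolism, from 1.25 to 3.69 CPM (1.53, SE 0.38). Bnip3, a mitophagy receptor, fell from 53.4 to 14.2 CPM (-1.89, SE 0.13), Txnip, which limits glucose uptake, from 668 to 375 CPM (-0.83, SE 0.09), and Cdkn1b, the cell cycle inhibitor p27, from 136 to 78.3 CPM (-0.80, SE 0.09). Pck1 and Phlpp2 were thus called higher in both KOIEC crypts and KOCAG organoids, while the list as a whole had no single direction in KOCAG organoids.

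Genes whose pattern was most like that of Insr and Irs2 were looked up over the 16 libraries, among 12478 genes tested in all 3 experiments, as Pearson's r of log2 CPM centred on each experiment's mean. The libraries share 3 preparations and r is a description. Insr was most like Gpatch8 (r = 0.974), Arhgef11 (0.97) and Inpp4a (0.948), the last a lipid phosphatase that acts on a product of PI3K signaling. Of these none was called in any experiment, with log2 fold changes of 0.34 to 0.43 in the crypts and -0.23 to -0.09 in KOCAG organoids. Irs2 was most like Gm35339 (0.893), Per3 (0.886), a component of the circadian clock, and Map3k1 (0.882), and of these Per3 and Map3k1 fell in KOCAG organoids (log2 fold changes -0.93 and -0.35). Among the members Insr was closest to Foxo3 (r = 0.826) and Irs2 to Insr (0.73), and Akt1 ran the other way from both (-0.689 and -0.561).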

How the data were processed

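RNA-seq libraries were made from crypts (4 WT, 4 KOIEC) and from 2 sets of organoids (2 WT and 2 KOIEC, 2 WT and 2 KOCAG), 16 in all. As deposited, the 3 tables hold unnormalized read counts for each gene and its length, and the submitters' processing notes name HISAT2 2.0.5 and featureCounts 1.5.0-p3. The genome build and the strand setting are not given in the sources used here. Gene positions equalled GENCODE M21 (GRCm38) for 95.2% to 98.3% of genes. Totals ran from 7348191 to 16881395 counts per library, and intervals and floors cover counting error only.

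Each experiment was fitted by itself with edgeR 4.0.16 in R 4.3.3 (filterByExpr, TMM factors, quasi-likelihood F test, Benjamini-Hochberg over all genes tested, called at an adjusted p under 0.05). The study's own methods used DESeq2 with a 2-fold limit, and DESeq2 1.42.0 and that limit were alternatives here, beside other scalings, filters, covariates, a replicate block and each library left out. Interactions were fitted over all 16 libraries. CPM and RPKM used TMM-scaled library sizes and the table's gene lengths, and log2 CPM a prior count of 2. The scripts were tested on simulated data. Replicate pairs differed by a chi-square per gene of 4.03 to 108.8, so no library was taken as a repeat of another.

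The 10 members are all named. Of each pathway list, up to 3 called genes per direction and experiment with the smallest adjusted p are named, and the 3 genes most correlated with Insr and with Irs2. Fbxo32 and Gabarapl1 are named besides, as the uncalled crypt FOXO targets furthest below 0. The members and lists were chosen with earlier results of these data known. The class of mitochondrial ribosomal RNA was set at 100 and 2000 CPM.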

Additional observations from a re-analysis of the deposited data

How the results depend on the processing

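Counts of called members and list genes moved with the settings, and the causes were not tested. In the crypts, 4 members and 5 other pathway genes were called. Members fell to 0 at 2-fold or more, with library size in place of TMM, with the replicate block, with the mitochondrial ribosomal RNA class or the enterocyte score as a covariate, and without the 2 WT libraries of high mitochondrial ribosomal RNA, an alternative chosen after seeing the data. In 1 fit of all 16 libraries 2 members were called (Foxo3 and Socs4), and with each library left out 0 to 4. Foxo3 alone was lost with DESeq2 size factors and without the low-count filter. The pathway count was 3 with library size only, 12 without the filter, 19 with DESeq2, 11 in 1 fit, and 0 with the block, either covariate or those 2 libraries left out, and 0 to 13 with each library left out. Over all genes the crypt calls numbered 934, against 4 with the block, 2 with the class, 1 with the score, 1 without those 2 libraries, 635 with library size only, 1479 without the filter, 1659 in 1 fit, 2362 with DESeq2 and 2 to 2468 with each library left out.

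Leaving out each library in turn gave 0 to 2 called members and 0 to 8 pathway genes in KOIEC organoids, where 0 were called with all, beside 0 to 2322 genes of all. In KOCAG organoids 2 members and 20 pathway genes were called. These became 0 and 8 at 2-fold or more and 0 and 5 in 1 fit, the members 4 without the filter, and 2 to 4 with each library left out. Over all genes 4278 were called, against 1169 at 2-fold or more, 477 in 1 fit, 4811 without the filter and 2789 to 5177 with each library left out. Of the interactions, 0 members were called. Between crypts and KOCAG organoids 2 were called without the filter (Insr and Irs2), 1 with DESeq2 and 0 to 1 with each library left out. Between KOIEC and KOCAG organoids 1 was called without the filter (Irs2) and 0 to 2 with each library left out. Over all genes these interactions called 58 and 60, against 674 and 599 without the filter and 0 to 228 and 1 to 669 with each library left out.

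Members with small log2 fold changes changed sign in some settings. In the crypts, library size only gave -0.038 for Pik3r1, -0.0068 for Pik3ca and -0.077 for Foxo1. The enterocyte score gave 0.15 for Akt1 and 0.074 for Akt2, and leaving out both high WT libraries 0.032 for Akt2. Foxo1 was at -0.0077 without the filter, -0.0039 with the replicate block and -0.063 with the class as a covariate. With each crypt library left out, Pik3r1 ran from -0.024 to 0.14 and Foxo1 from -0.054 to 0.16. In KOIEC organoids such ranges were -0.0299 to 0.83 for Insr, -0.043 to 0.87 for Irs2, -0.026 to 0.17 for Pik3r1, -0.37 to 0.11 for Akt1 and -0.0199 to 0.46 for Foxo3. In KOCAG organoids Akt2 was at -0.018 with library size only and from -0.085 to 0.091 with each library left out, and Socs4 from -0.00092 to 0.11.

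Replicate numbers showed no steady pairing of the crypt libraries. Deviations of same-numbered crypt libraries correlated at -0.0437, 0.19, -0.395 and 0.434, and those of different-numbered ones at -0.474 to 0.486. Same-numbered libraries correlated at 0.342 in KOIEC organoids and 0.0669 in KOCAG organoids. With 2 libraries a group, different-numbered libraries take the same value with the opposite sign, so this check cannot decide on pairing in the organoids. With the number as a block the crypt adjusted p (edgeR) was 0.0945 for Insr, 0.0906 for Irs2, 0.0993 for Foxo3 and 0.0891 for Socs4. In KOCAG organoids Insr joined Irs2 and Pik3r1 with the block, giving 3 members and 24 pathway genes called. Calls over all genes rose there too, from 4278 to 4932. Groups of 2 libraries and the low Irs1 counts limit what the organoid comparisons can show.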
